A study of Homo sapiens with 30 samples.

Results

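The C/D box small nucleolar RNAs (snoRNAs) on the array were studied in lymphoma cells exposed to the forms YK-S and YK-R of the ETS inhibitor YK-4-279. The members were chosen by gene symbol, as every probe annotated to SNORD followed by a digit. They were 178 of the 47231 probes and stood for 176 symbols, since SNORD107 and SNORD58C had 2 probes each. The class was picked out because several members had been seen to differ between the forms in TMD8 cells at 8 h in these arrays. The values of that comparison therefore describe the members and are not evidence about them.

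C/D box snoRNAs are short RNAs kept in the nucleolus, where they sit in a particle with the methyltransferase fibrillarin (FBL) and the proteins NOP56, NOP58 and SNU13. Most pair with ribosomal RNA and guide its methylation on the ribose, and a few, such as U3 (SNORD3), U14 (SNORD14), U22 (SNORD22) and U13 (SNORD13), act in the processing or base modification of the ribosomal precursor. Nearly all human members lie in introns of host genes, many of them ribosomal protein genes or non-coding genes named SNHG, and are trimmed from the spliced intron, so that the host messenger and the snoRNA share a promoter but not a fate.

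The series held 30 bead arrays of total RNA from TMD8 and U2932, both lines of activated B cell-like diffuse large B cell lymphoma. TMD8 was exposed to YK-S or YK-R for 4 h or 8 h, and U2932 to DMSO, YK-R or YK-S for 4 h or 8 h, which made 10 groups of 3 arrays. TMD8 had no DMSO group, so every TMD8 comparison set 1 form against the other or 1 time against the other. The letters S and R are read here as the mirror-image forms (enantiomers) of the chiral compound YK-4-279, made to keep ETS fusion proteins from an RNA helicase partner. The labels gave no dose. Nothing in them states that arrays of the same group were independently grown cells, and p-values then reflect only the spread among arrays, which may be technical. The bead signal of a group in bulk RNA cannot tell fewer cells from less RNA per cell.

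The 12 TMD8 arrays had mean deposited signals between 420 and 494, and 46.6% to 56.1% of their probes were above background. On the 18 U2932 arrays these ranges were 85.4 to 340.9 and 25.2% to 50.5%, and 8 of them, all U2932, were dim, with a mean under 200. The signal table and the log2 value table that were deposited side by side held the same 12 TMD8 arrays under the same names. Of the 18 U2932 arrays, 0 carried the same name in both tables and 5 fell in the same group, so the U2932 comparisons between treatments are given under both sets of names. Of 6 B cell markers on the array, CD79B, CD79A, MS4A1, CD22 and BLNK were above background on every TMD8 array, as were 0 of 6 T cell markers and 0 of 7 stromal and epithelial markers, and of 5 myeloid markers CD14 alone. On every U2932 array CD79B, CD79A, MS4A1 and CD22 were above background. So was EPCAM of the stromal and epithelial markers, with 0 T cell and 0 myeloid markers.

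Values are log2 bead signals after background correction and quantile normalization within each line, on which an empty probe sits a little above 4. In TMD8, 85 of the 178 probes were above background on all 12 arrays, 42 on some and 51 on none. In U2932, 34 were above background on all 18 arrays, 100 on some and 44 on none. On none of the 30 arrays were 35 probes above background, and 34 probes were on all of them. The number of members above background ran from 96 to 108 per TMD8 array and from 48 to 103 per U2932 array. Among U2932 arrays it was 48 to 89 on the 8 dim arrays and 84 to 103 on the other 10, so that detection moved with the brightness of the array (plot of probes detected by mean signal).

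**Figure D1:**
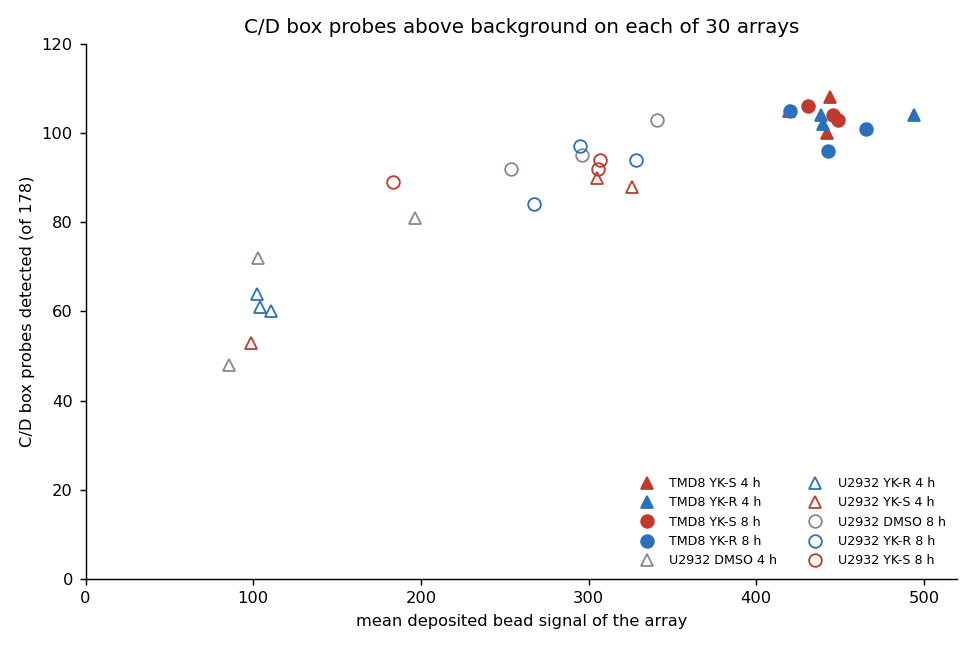
C/D box probes above background, of 178, against the mean deposited bead signal of each of the 30 arrays; filled symbols are TMD8, open symbols U2932 under the names of the signal table, colours give the treatment and shapes the time. The 12 TMD8 arrays lie between 96 and 108 probes, and the 8 U2932 arrays with a mean signal under 200 lie between 48 and 89.

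Of the 51 members on no TMD8 array, 23 were of the imprinted repeat clusters (SNORD113 to SNORD116, with SNORD107, SNORD108, SNORD109A, SNORD109B and SNORD64), copies best known from brain and placenta. The array held 37 such probes, and their means over the 12 arrays lay between 4.25 and 5.71. SNORD114-2, with a mean of 5.71, was the 1 member of these clusters detected on all 12. Of the other 141 probes, 28 were on no TMD8 array and 84 on all 12.

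A probe was tested where it was above background on all 3 arrays of at least 1 group of the line. In TMD8 that left 101 members and set 77 aside, and in U2932 it left 89, of which 87 were tested in both lines. Of the 101, 4 passed through YK-S groups alone and 2 through YK-R groups alone, where the filter favours a higher value in that form. The first 4 were SNORD105, SNORD18B, SNORD113-1 and SNORD113-7, and the other 2 were SNORD54 and SNORD113-4. Of the 37 imprinted probes 5 were tested, and of the 141 others 96. Of the 77 left out, 51 were above background on no TMD8 array and 26 on some, and counts over the 101 do not speak for them.

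Over the 34 members on all 30 arrays, with both lines normalized together, the median member stood at 7.43 ± 0.02 (SD, n = 3 arrays) in TMD8 under YK-S at 4 h, at 7.32 ± 0.04 under YK-R at 4 h, at 7.42 ± 0.12 under YK-S at 8 h and at 7.18 ± 0.08 under YK-R at 8 h. Under the names of the signal table, the group values of U2932 ran from 7.04 ± 0.41 with DMSO at 4 h to 7.31 ± 0.14 with YK-R at 8 h. The 3 DMSO arrays at 4 h, all dim, were spread from 6.62 to 7.44, which takes in the mean of every TMD8 and U2932 group.

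In TMD8 at 8 h a subset of members was higher under YK-S than under YK-R, while many other members lay near 0. Of the 101 tested members 21 had a difference above 1 on the log2 scale and 4 above 2, 41 lay within 0.25 of 0, and 3 lay below -0.25. The median difference was 0.37 over the members and 0.014 over all 23702 tested probes, and 80 of the 101 members were above 0. On all 3 YK-S arrays 38 members were higher than on all 3 YK-R arrays, as were 4.69% of all tested probes, and SNORD114-7 was lower on all 3, as were 3.65% of all. With limma and Benjamini-Hochberg adjustment 10 members passed an adjusted p of 0.05, all higher under YK-S, against 0.0464% of all probes (11 in all). Because the class was singled out on this comparison, nothing is read from those counts.

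The 10 members past the threshold were SNORD38B, SNORD46, SNORD18A, SNORD105, SNORD13, SNORD2, SNORD83B, SNORD117, SNORD59B and SNORD68. SNORD105 was tested through its YK-S groups alone. The number 10 rested on single arrays. Without replicate 2 of YK-S at 8 h it was 0 (0% of all probes), and without replicate 3 of YK-S it was 1 (0.00417%). Without replicate 1 of YK-R it was 2 (0.00802%), without replicate 3 of YK-R 4 (0.0166%), and without replicate 2 of YK-R 16 (1.85%). In a fit of all 30 arrays together it was 0. YK-R arrays at 8 h had 51.6% to 56.1% of probes above background and YK-S arrays 46.6% to 52.6%; the part of this in the member values was not tested.

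The largest difference belonged to SNORD38B, a methylation guide for large-subunit ribosomal RNA. Its log2 signal was 7.06, 8.00 and 8.10 on the 3 YK-S arrays at 8 h and 5.19, 4.51 and 5.0 on the 3 YK-R arrays, of which 1 was at background. At 4 h it read 6.97, 7.99 and 6.64 under YK-S and 4.93, 5.02 and 4.94 under YK-R. The 6 YK-S arrays all lay above the 6 YK-R arrays. The difference was 2.82 (SE 0.34, 7.06-fold) at 8 h and 2.24 (SE 0.34, 4.72-fold) at 4 h.

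SNORD46, another guide for large-subunit ribosomal RNA, read 10.96, 11.25 and 11.86 under YK-S and 8.74, 8.09 and 8.86 under YK-R at 8 h. At 4 h its values were 10.88, 11.23 and 10.34 against 8.78, 8.92 and 8.73. Here too the lowest YK-S array stood above the highest YK-R array at both times. The difference was 2.79 (SE 0.27, 6.92-fold) at 8 h and 2.01 (SE 0.27, 4.02-fold) at 4 h.

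SNORD18A, a guide from an intron of RPL4, read 7.79, 8.09 and 8.56 under YK-S at 8 h and 5.82, 5.70 and 5.25 under YK-R. At 4 h it read 7.45, 8.10 and 7.07 against 5.63, 6.16 and 6.09. The forms did not overlap at either time, with differences of 2.56 (SE 0.28, 5.89-fold) at 8 h and 1.58 (SE 0.28, 2.99-fold) at 4 h. SNORD74, from the non-coding host GAS5, read 9.52, 8.86 and 10.72 under YK-S against 7.58, 6.73 and 7.65 under YK-R at 8 h. Its 4 h values were 9.38, 10.15 and 9.06 against 7.44, 8.14 and 7.94. Both times were again without overlap, but the 3 YK-S arrays at 8 h were spread over nearly 2 log2 units (SD 0.94), and the difference of 2.38 (SE 0.43, 5.20-fold) did not pass the adjusted threshold.

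SNORD71, which guides methylation of the small ribosomal RNA of the large subunit, lies in AP1G1 and read 6.74, 7.19 and 7.72 under YK-S against 5.53, 5.31 and 4.82 under YK-R at 8 h. SNORD105, a guide for small-subunit ribosomal RNA from PPAN, read 6.23, 6.41 and 6.93 against 4.79, 4.35 and 4.53, and only 1 of the 3 YK-R arrays at 8 h and 0 of 3 at 4 h were above background. SNORD38A, a guide close in name and role to SNORD38B, read 7.75, 7.68 and 8.46 against 6.28, 6.19 and 5.54. Differences at 8 h were 1.99 for SNORD71, 1.96 for SNORD105 and 1.96 for SNORD38A, without overlap; that of SNORD105 was taken against a group with 2 of 3 arrays at background. At 4 h SNORD71 read 6.58, 7.22 and 5.98 under YK-S and 5.38, 5.52 and 5.25 under YK-R, and SNORD38A read 7.49, 8.41 and 6.82 against 6.67, 6.71 and 6.34. Also at 4 h SNORD105 read 5.79, 6.57 and 5.62 under YK-S and 4.49, 4.36 and 4.53 under YK-R, at least 2.37-fold higher under YK-S. The filter favours this direction, since SNORD105 was tested through its YK-S groups alone.

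SNORD13, the acetylation guide U13, has no host gene in the annotation. It read 11.45, 11.56 and 12.03 under YK-S at 8 h and 9.88, 9.52 and 9.84 under YK-R, and 11.39, 11.86 and 10.94 against 9.96, 10.05 and 9.63 at 4 h. The groups stood apart at both times, by 1.94 (SE 0.23, 3.83-fold) at 8 h and 1.52 (SE 0.23, 2.86-fold) at 4 h. It is transcribed from its own promoter.

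**Figure D2:**
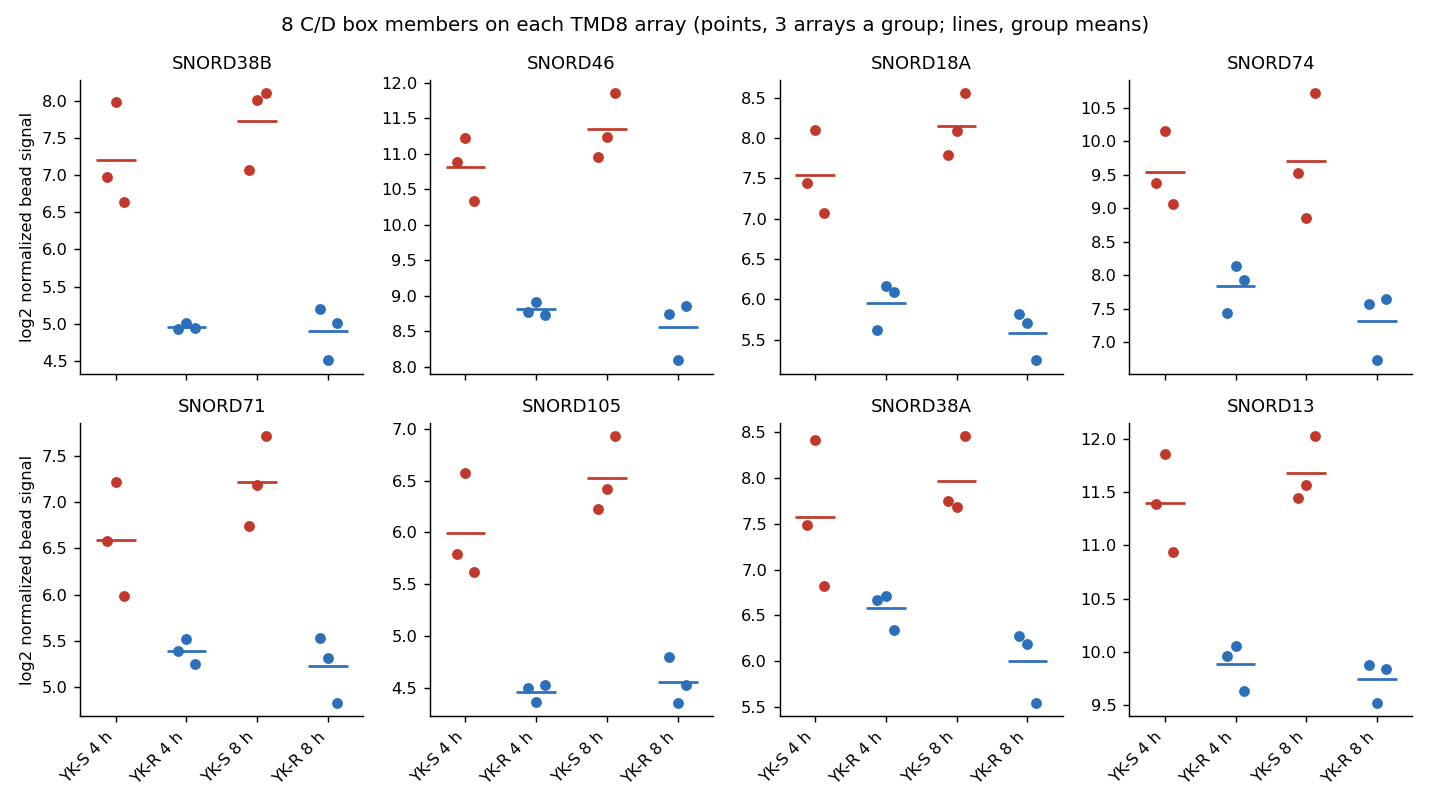
Log2 normalized bead signal of the 8 members with the largest YK-S minus YK-R difference at 8 h, on each of the 12 TMD8 arrays (points) with group means (lines), red for YK-S and blue for YK-R. At both times every YK-S point lies above every YK-R point of the same member, for example 10.34 or more against 8.92 or less for SNORD46.

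The next 13 members above a log2 difference of 1 at 8 h ran from 1.05 (SNORD3C) to 1.85 (SNORD2). SNORD2, from the translation factor gene EIF4A2, read 6.19, 6.72 and 7.32 under YK-S and 5.20, 4.87 and 4.62 under YK-R. SNORD83B, from RPL3, read 9.07, 8.78 and 9.93 against 7.48, 7.54 and 7.38, and SNORD87, from SNHG6, read 8.43, 9.56 and 9.66 against 7.67, 7.61 and 7.38. SNORD68, from RPL13, read 10.34, 10.54 and 11.03 against 9.38, 9.14 and 8.96. These values did not overlap between the forms, and neither did those of SNORD117, SNORD59B, SNORD27, SNORD51, SNORD35A, SNORD21, SNORD55 and SNORD18B. For SNORD18B, tested through its YK-S groups alone, the filter favours this. Only SNORD3C, a copy of U3, had overlapping groups among the 21.

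The comparison at 4 h used other arrays than the one the class was picked on. No member was called there by limma with Benjamini-Hochberg adjustment (0% of the 23702 probes), and the lowest adjusted p of any member was 0.150, shared by SNORD38B, SNORD46 and SNORD13. SNORD18A had an adjusted p of 0.299, SNORD83B of 0.565 and SNORD35A of 0.711 in the same limma fit. SNORD105, at 0.181 there, was tested through its YK-S groups alone, so that this p supports nothing. Without adjustment 18 members were under 0.05 (17.8% of members) against 497 probes in all (2.10%). The members counted include 4 tested through YK-S groups alone and 2 through YK-R groups alone. For those the filter favours a difference, so the share is a description. With a robust variance trend 1 member, SNORD46, passed, with an adjusted p of 0.0338; over all settings its limma adjusted p ran from 0.0338 to 1.0.

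In values, most of the members that were high at 8 h were high at 4 h too. The median difference over the 101 was 0.087, against 0.0010 over all probes, and 64 were above 0. On all 3 YK-S arrays 19 members were higher than on all 3 YK-R arrays, against 3.75% of all probes, and 4 were lower, against 4.03%. Of the 21 members above 1 at 8 h, 17 had non-overlapping groups at 4 h and all 21 were above 0 there, from 0.24 (SNORD27) to 2.24 (SNORD38B). The 4 lower ones were SNORD14D (-0.24), SNORD54 (-0.31), SNORD94 (-0.25) and SNORD99 (-0.20). Of these, SNORD54 was tested through its YK-R groups alone, where the filter favours a lower value under YK-S. The 19 higher ones include SNORD105, tested through its YK-S groups alone, where the filter favours a higher value.

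**Figure D3:**
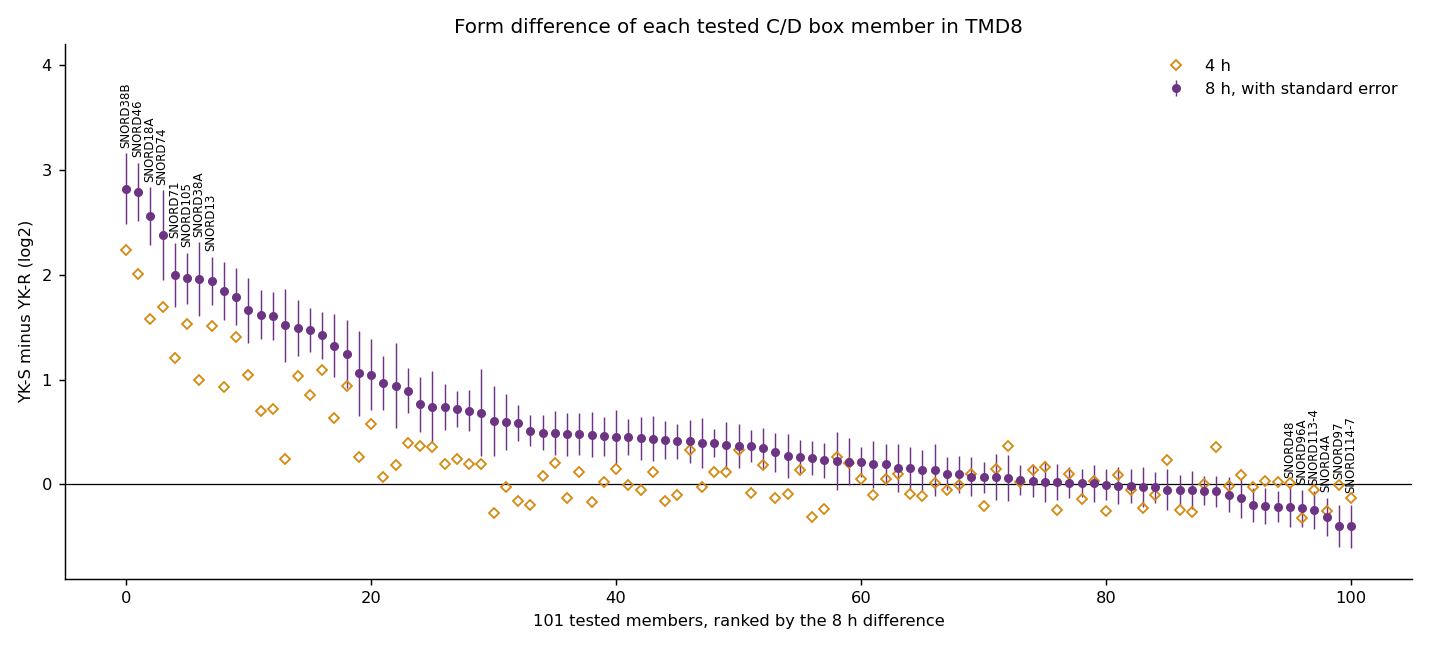
YK-S minus YK-R log2 difference of the 101 tested members in TMD8, ranked by the value at 8 h (filled, bars are standard errors) with the value at 4 h (open diamonds). A head of 21 members lies above 1 at 8 h, and 41 members lie within 0.25 of 0. For the 21 the 4 h value is lower than the 8 h value in every case, which picking them on the 8 h value favours.

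All 21 had a smaller difference at 4 h than at 8 h. They were picked on their 8 h value, which favours a smaller value at 4 h, so nothing is read from this. The test of form against time gave 0 calls among the members (0% of all probes) with limma, with 11 members under 0.05 before adjustment (10.9%) against 4.32% of all probes, so the growth of the difference from 4 h to 8 h was not called for any member. SNORD27 had the largest such growth among the 21, at 1.28 (SE 0.49), from 0.24 at 4 h to 1.52 at 8 h. This comparison, and those of 8 h against 4 h within a form, share arrays with the 8 h difference.

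Time within a form moved no member past the threshold. Under YK-S, 8 h against 4 h, 0 members were called with limma (0.0338% of all probes were), 6 were under 0.05 unadjusted (5.94%, against 5.46% of all), and the median was 0.093. Under YK-R 0 members were called as well (0.0802% of all probes were), 9 were under 0.05 unadjusted (8.91%, against 9.98%), and the median was -0.16, with 17 of 101 members above 0 and 44.6% of all probes above 0. SNORD38A, for example, changed by 0.39 under YK-S and by -0.57 under YK-R, and SNORD18A by 0.61 and -0.37, neither past the threshold.

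Members that act in ribosomal RNA processing went apart. SNORD13 was 3.83-fold higher under YK-S at 8 h, as above. The U3 copies SNORD3A, SNORD3C and SNORD3D, which are nearly identical in sequence and may share signal, differed by 0.74, 1.05 and 0.94 at 8 h, all with overlapping groups. SNORD3D read 10.34, 9.33 and 11.40 under YK-S against 9.65, 8.80 and 9.80 under YK-R, so that 1 of the 3 YK-S arrays was below 2 of the YK-R arrays. The U14 copies SNORD14A, SNORD14B, SNORD14C and SNORD14D, also close in sequence, differed by 0.04, 0.41, 0.27 and -0.05, and U22 (SNORD22) by 0.08. Over the 12 arrays SNORD14A kept between 8.33 and 8.69, and SNORD22 between 5.88 and 6.54.

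Of the members that did not follow, SNORD104, a guide from SNHG25, read 10.09, 9.95 and 10.50 under YK-S against 10.36, 9.87 and 10.28 under YK-R at 8 h, a difference of 0.01 (SE 0.18). The lowest differences at 8 h were those of SNORD114-7 (-0.40, SE 0.21), SNORD97 (-0.40, SE 0.20), SNORD4A (-0.31, SE 0.18), SNORD113-4 (-0.25, SE 0.18), SNORD96A (-0.23, SE 0.18) and SNORD48 (-0.21, SE 0.19). None of these 6 was called, and only SNORD114-7 had groups that did not overlap, with 4.95, 4.53 and 4.80 under YK-S against 5.09, 5.31 and 5.08 under YK-R. SNORD114-7, SNORD113-4 and SNORD97 lay near background, with highest values of 5.44, 5.29 and 5.47 on any TMD8 array. SNORD113-4 was tested through its YK-R groups alone, where the filter favours a lower value under YK-S.

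SNORD4A, SNORD96A and SNORD48 were above background on all 12 arrays. SNORD4A, from RPL23A, read 8.37, 8.07 and 8.67 under YK-S against 8.81, 8.55 and 8.66 under YK-R at 8 h. SNORD48, widely used as a reference in small RNA assays, read 6.41, 5.94 and 6.38 under YK-S against 6.85, 6.37 and 6.14 under YK-R at 8 h, and 6.78, 6.62 and 6.47 against 6.65, 6.65 and 6.54 at 4 h. SNORD96A, a guide from RACK1, read 8.12, 8.01 and 8.48 against 8.26, 8.53 and 8.51 at 8 h. All 3 had overlapping groups at 8 h.

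Members of 1 host gene often went apart. A host, taken as the shortest RefSeq gene that spans the member, was found for all but 5 of the 101 tested members, and the members fell on 56 hosts. Of 23 hosts with 2 or more tested members, 7 had members more than 1 log2 unit apart at 8 h, among them RPL4, GAS5, RPL3, RPL13A, SNHG1 and DDX39B. The 21 members above 1 came from 15 hosts, with 2 members that had none. Among them 16 lay in protein-coding hosts, 10 of these in ribosomal protein genes, and 3 in non-coding hosts. Of the 41 members within 0.25 of 0, 22 lay in protein-coding hosts, 10 of these ribosomal, and 19 in non-coding hosts.

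In RPL13A, whose snoRNAs are known from studies of lipid stress, SNORD35A read 9.33, 9.15 and 10.16 under YK-S against 8.27, 8.03 and 8.09 under YK-R at 8 h. Its neighbour SNORD33 read 8.77, 8.68 and 9.24 against 9.04, 8.93 and 9.31, and SNORD32A and SNORD34 also had overlapping groups. The differences were 1.42 (SE 0.22) for SNORD35A and -0.19, -0.21 and -0.21 for SNORD33, SNORD32A and SNORD34. In RPL4, SNORD18A differed by 2.56 and SNORD16 by 0.02 (SE 0.13). SNORD18B, at background on all 3 YK-R arrays at 8 h, was at least 1.69-fold higher under YK-S. It was tested through its YK-S groups alone, so that the filter favours this direction.

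GAS5 gave 2.38 for SNORD74, 0.89 for SNORD80, 0.61 for SNORD78 and 0.14 for SNORD76. RPL3 gave 1.79 for SNORD83B, 0.47 for SNORD43 and 0.15 for SNORD139. In SNHG1, known as the host of U22, SNORD27 differed by 1.52 while SNORD30, SNORD22, SNORD31 and SNORD25 lay between -0.06 and 0.22.

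No host transcript was called between the forms. Of the 56 hosts 44 had a tested probe of their own, and 0 were called at 8 h or at 4 h with limma, with lowest adjusted p-values of 0.693 and 1.0. Their median difference at 8 h was -0.0067, 21 of 44 were above 0, and the range was -0.73 (MEG8) to 0.45 (TAF1D). The RPL4 transcript differed by 0.01 (SE 0.12), that of RPL3 by -0.02 (SE 0.12), that of RPL13A by -0.04 (SE 0.13), that of SNHG1 by -0.14 (SE 0.20) and that of GAS5 by 0.36 (SE 0.21).

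**Figure D4:**
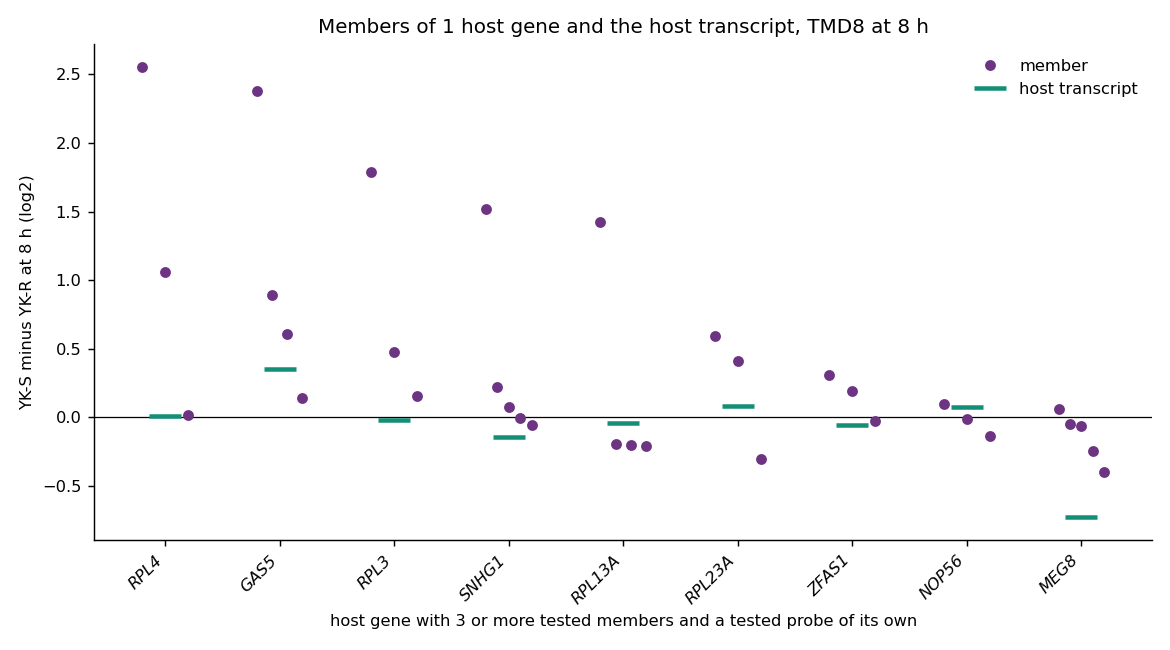
YK-S minus YK-R log2 difference at 8 h in TMD8 of the tested members (points) of each host gene with 3 or more of them and a tested probe of its own, with that host transcript (green bar). In RPL13A SNORD35A lies at 1.42 and the other 3 members near -0.2, with the host at -0.04.

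Members of 1 host share its promoter, and the promoters of 2 hosts whose members went apart are shown, 1 without and 1 with a match to the motif searched. The windows are RefSeq sequence of build GRCh38.p14, from 250 bases before to 50 after the start of the gene, written in the direction of transcription: RPL4 at chr15:66504806-66505105 on the minus strand, and RPL13A at chr19:49487358-49487657 on the plus strand. Capitals mark the letters CCGGAA, a form of the ETS core, on either strand, and no other motif was searched.
RPL4: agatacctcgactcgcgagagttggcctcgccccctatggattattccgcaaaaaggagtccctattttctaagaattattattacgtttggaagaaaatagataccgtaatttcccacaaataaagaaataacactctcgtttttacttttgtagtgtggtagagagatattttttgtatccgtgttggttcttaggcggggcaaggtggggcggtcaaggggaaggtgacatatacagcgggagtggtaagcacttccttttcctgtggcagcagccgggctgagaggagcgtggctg
RPL13A: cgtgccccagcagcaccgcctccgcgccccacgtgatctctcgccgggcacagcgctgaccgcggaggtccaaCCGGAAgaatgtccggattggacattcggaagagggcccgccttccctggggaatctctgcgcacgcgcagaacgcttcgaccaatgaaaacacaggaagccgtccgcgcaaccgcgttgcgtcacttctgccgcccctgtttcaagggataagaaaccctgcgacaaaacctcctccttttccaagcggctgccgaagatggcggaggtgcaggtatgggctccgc
RPL13A held 1 match, starting 177 bases before the gene start, RPL4 held 0, and the promoter of GAS5, not shown, held 0. The letters were in 17.2% of all 35116 promoters, in 15 of the 44 promoters found for hosts of tested members (34.1%), and in 5 of the 11 found for hosts of members above 1 at 8 h (45.5%); 12 hosts had no entry. A match of these letters is a description of the sequence, and binding there was not measured.

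No gene for a protein of the C/D particle or its assembly was called between the forms. Of 4 core proteins, FBL, NOP56, NOP58 and SNU13, 0 were called in TMD8 at 8 h, with differences between 0.07 (NOP56) and 0.21 (NOP58). Of 9 assembly factors listed, such as RUVBL2 and NUFIP1, 8 were tested and 0 called, with differences between -0.15 and 0.15. Of 12 genes for snoRNA transport and trimming 0 were called, with a highest difference of 0.41 for TGS1, the enzyme that modifies the cap of independently made snoRNAs. None of the tested genes of these 3 lists was under an unadjusted p of 0.05 at 8 h in the limma fit.

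Other short non-coding RNAs are set beside the class. Of 101 H/ACA snoRNA genes, which guide pseudouridine, 81 were tested at 8 h and 0 called with limma (21 under 0.05 unadjusted, 25.9%, against 6.85% of all probes and 43.6% of C/D members), with a median difference of 0.10 and a highest of 1.54 for SNORA51. Of 18 tested small Cajal body RNAs 0 were called (4 under 0.05 unadjusted), with a median of 0.14. The 11 tested spliceosomal RNAs had a median of 0.23 and a highest value of 0.40, and 0 were called or under 0.05. The 11 tested genes of the RNY, VTRNA and RN7S families with RMRP and RPPH1 had a median of 0.0061, from -0.68 for RNY4 to 0.54 for RMRP, and 0 were called (3 under 0.05 unadjusted). These values are given side by side with the C/D median of 0.37, and no test compared the classes. Purification columns of the kind used retain very short RNA poorly and the labelling primes on poly(A) tails. Which RNA form the member probes read, mature or precursor, was not tested.

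In U2932 DMSO controls were present. Under the names of the signal table YK-S against DMSO called 0 of the 89 members with limma at 4 h (0% of 20800 probes; 17 members under 0.05 unadjusted, 19.1%, against 19.1% of all) and 0 at 8 h (0%; 2 under 0.05, 2.25%, against 2.17%). YK-R against DMSO called 1 member at 4 h, against 2.05% of all probes, and 0 at 8 h (0%, and 0 under 0.05). The 1 was SNORD73A, a guide from RPS3A, which rose from 4.68 ± 0.22 to 5.62 ± 0.53 (SD, n = 3 arrays each), by 0.94 (SE 0.22, limma adjusted p 0.0429). It was above background on 1 of the 3 DMSO arrays, and all 6 arrays were dim. Leaving out replicate 2 of DMSO, or replicate 2 or 3 of YK-R, left 0 members called (0.0383%, 0% and 0% of all probes). Without replicate 3 of DMSO there were 22 of 91 members, against 31.1% of all probes. Without replicate 1 of DMSO there were 11 of 89, against 9.94% of all probes.

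YK-S against YK-R in U2932 called 0 members at 4 h (0%, 4 under 0.05 unadjusted) and 0 at 8 h (0%, 0 under 0.05), with member medians of -0.11 and 0.06. Without the dim array, replicate 1 of YK-S at 8 h, the second median was -0.0067. Under the value table's names, 88 members of 19439 probes were tested, and limma called 0 members in each of the 6 comparisons. All probes called were 0% for YK-S against DMSO at 4 h and 0% at 8 h, 0.37% for YK-R against DMSO at 4 h and 0% at 8 h, and 0% for YK-S against YK-R at 4 h and 0% at 8 h. The member medians for YK-S against YK-R were then 0.16 at 4 h and 0.22 at 8 h, against 0.051 and 0.021 over all probes. At 4 h 11 of 88 members were under 0.05 unadjusted for YK-S against YK-R (12.5%), against 13% of all probes. At 8 h 16 of 88 were (18.2%), against 1.97% of all probes. YK-S against DMSO had 8 members under 0.05 unadjusted at 4 h (9.09%, against 9.28%) and 12 at 8 h (13.6%, against 0.586%). YK-R against DMSO had 9 at 4 h (10.2%, against 19.4%) and 0 at 8 h (0%, against 0.808%). SNORD73A differed by 0.09 (SE 0.28) for YK-R against DMSO at 4 h under these names.

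The 8 members with the largest YK-S minus YK-R difference in TMD8 at 8 h had a mean that stood above the rest of U2932 on 2 arrays. Their mean was 6.85 on one and 6.71 on the other, against a median of 5.29 and a lowest of 4.82 over the 18 arrays. The first array was YK-S at 8 h under both sets of names, though dim, with a mean signal of 183. The second, with a mean signal of 341, was DMSO at 8 h in the signal table and YK-S at 8 h in the value table. SNORD46 read 8.45 and 8.67 on these arrays and SNORD74 read 7.99 and 7.23. SNORD13 read 9.51 and 9.81 there, but 10.13 on replicate 2 of DMSO at 4 h in the signal table. SNORD105 read 5.12 and 4.75 there, but 5.26 on replicate 3 of YK-R at 4 h in the signal table.

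Grouped by the signal table, the mean of the 8 at 8 h ran from 5.12 to 6.71 with DMSO, from 5.21 to 5.54 with YK-R and from 5.18 to 6.85 with YK-S, so all 3 groups overlapped. Grouped by the value table it ran from 5.12 to 5.21 with DMSO, from 5.08 to 5.26 with YK-R and from 5.54 to 6.85 with YK-S, which lay above both. Under those names SNORD46 was 2.14 (SE 0.51) and SNORD18A 1.10 (SE 0.29) above YK-R on the YK-S arrays at 8 h, both with a limma adjusted p of 1.0. Which set of names is right could not be settled from the labels.

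**Figure D5:**
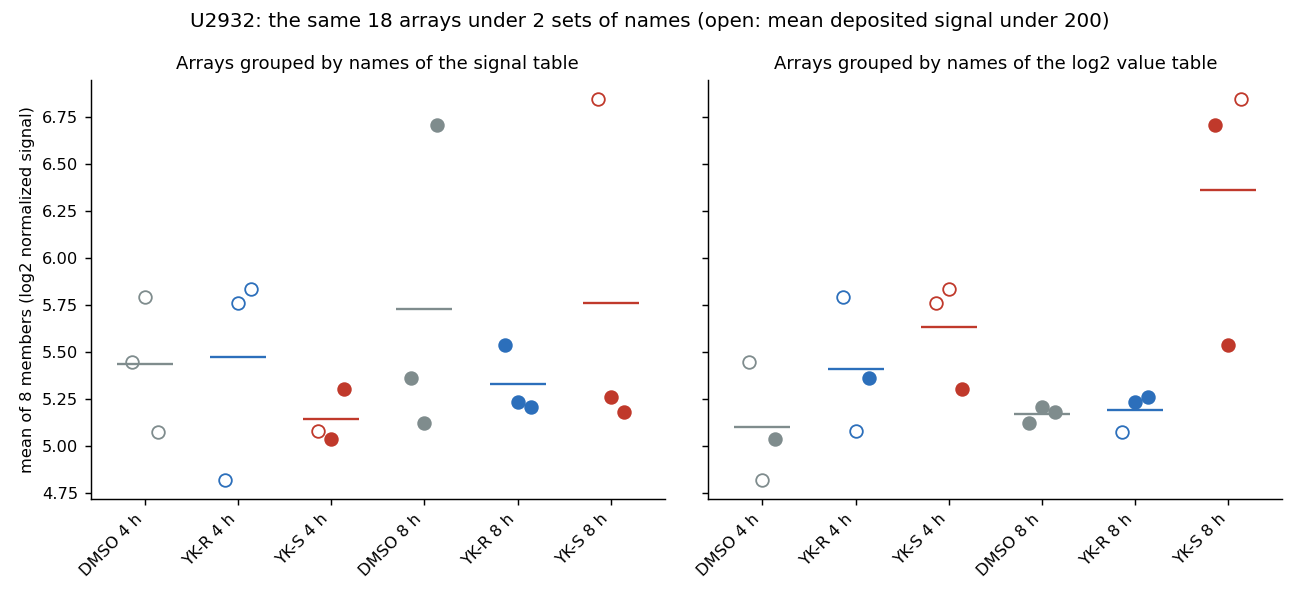
Mean log2 normalized signal of the 8 members with the largest TMD8 difference on the 18 U2932 arrays, the same arrays grouped by the names of the signal table (left) and of the value table (right); lines are group means, and open points have a mean deposited signal under 200. The 2 highest arrays, at 6.71 and 6.85, lie in DMSO 8 h and YK-S 8 h on the left and both in YK-S 8 h on the right.

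The form difference was set against the line in a fit of all 30 arrays. By the signal table names 0 of 103 members were called with limma for a difference between lines at 4 h (0%; 16 under 0.05 unadjusted, 15.5%, against 3.15% of all probes) or at 8 h (0%; 11 under 0.05, 10.7%, against 1.56%). SNORD46 differed between the lines by 2.18 (SE 1.09) at 8 h in this term, a wide interval. No member's form difference was therefore called as different between the lines, which does not show that the lines are alike.

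Levels did differ between the lines, at the rate of all probes. Of 103 members 59 were called with limma, 41 higher and 18 lower in TMD8, against 57.9% of all probes. The labels name no array run, so a difference between runs cannot be told apart from one between lines. TMD8 had no DMSO group, while the U2932 mean takes in DMSO groups, so treatment is mixed into this difference too. With median scaling in place of quantile normalization, which moved the median of all probes to 0.71, 91 were higher and 1 was lower. Of all 25382 probes, 17047 were then called higher and 2194 lower (75.8%). With quantile normalization but without the dim arrays, and so with fewer U2932 groups, 76 of 104 members were called. Of these 44 were higher and 32 lower in TMD8, against 67.4% of all probes called. The member values that follow are from both lines normalized together, a scale other than that of the values within each line above. SNORD74 ran from 5.86 to 9.57 (median 7.35) over the TMD8 arrays and from 4.38 to 8.78 (median 5.71) over the U2932 arrays. These ranges overlapped, with a fitted difference of 1.62 (SE 0.31). SNORD49A, a methylation guide from SNHG29, ran from 6.61 to 7.32 in TMD8 and from 4.48 to 6.92 in U2932. SNORD89 was above background on 0 of 12 TMD8 arrays and on 16 of 18 U2932 arrays, at least 2.25-fold higher in U2932. It was tested through U2932 groups alone, where the filter favours a higher value in U2932, so this is a description. SNORD36A differed by -1.0 (SE 0.09), running from 7.17 to 7.67 in TMD8 and from 7.65 to 8.96 in U2932.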

How the data were processed

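Biotin-labelled RNA from TMD8 and U2932 cells was read on Illumina bead arrays. The deposited signal table holds linear intensities per probe that were not normalized. The deposited value table holds normalized log2 values of the same arrays, and the submitters' processing notes name GenomeStudio, with no version. The background correction, the normalization and the genome build of the probe design were not given in the sources used here.

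From the intensities, the background of each array was taken at the mode of its log2 signals with the spread of the signals below it, corrected by normexp with an offset of 16, quantile normalized within each line and put on the log2 scale. A probe was called above background at an upper tail p under 0.05 of that background, a stand-in for Illumina's detection p, and was kept where it was above on all 3 arrays of a group. Array number and brightness limit the precision. Group means were fitted with limma 3.58.1 in R 4.3.3 (lmFit, eBayes), per line, with Benjamini-Hochberg adjustment over all kept probes. Contrasts between lines used all 30 arrays normalized together. The code was tested on simulated data. A fold against a group at background is a bound, against the lowest signal above background on each array.

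The members, the lists and the fit of TMD8 alone were chosen with earlier results of these data known. Values are given for the 8 largest and 6 lowest differences in TMD8 at 8 h, the 5 brightest probes, the members known for rRNA processing and the called members, and hosts are described with their members. Symbols came from the platform annotation, and all 178 member probes matched RefSeq by gene ID with 0 symbols changed. RefSeq gave no strand for members, so hosts were taken without it. Results for 1 host are not reported here. Promoters and motif matches came from RefSeq GRCh38.p14. Alternatives tried were other background corrections, normalizations, filters, fits and names of U2932 arrays, and the removal of single arrays.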

Additional observations from a re-analysis of the deposited data

How the results depend on the processing

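The number of called members in TMD8 at 8 h, YK-S against YK-R, was 10. It was 0 in 1 fit of all 30 arrays, 5 with plain normexp at an offset of 50, 3 without background correction, 16 with median scaling (which moved the median of all probes to 0.16), 1 with no filter on dim probes and 6 with probes detected on every array. With the deposited log2 values, the brightest probe per gene and a robust variance trend it was 12 each. Of all probes 0% to 0.0844% were called in these settings. Leaving out single arrays gave 0 to 16 members, against 0% to 1.85% of all probes. The member median stayed above 0 in all of these, from 0.10 with no filter to 0.43. In TMD8 at 4 h the number was 0, with 1 under a robust variance trend. In U2932 at 4 h, YK-S against DMSO gave 0, and 5 in the fit of 30 arrays (7% of all probes). Without single arrays it gave 0 to 17 (0% to 20.1% of all probes). YK-R against DMSO gave 1 (2.05% of all probes). Under the value table's names it gave 0, with the signals (0.37%) and with that table's values (2.05%). It gave 23 in the fit of 30 arrays (16.3%), 0 with median scaling (0%), and 0 to 22 without single arrays (0% to 31.1%). The called members between the lines were 59 (57.9% of all probes), and 92 with median scaling (75.8%). The cause of these changes was not tested. Counts of called members stayed within 1.5 times in 193 other comparisons and settings. Most of these had 0 members called both there and in the main fit, so the number says little about stability. The comparisons at 4 h without dim arrays could not be run, since groups were lost. No paired analysis was possible because the labels give no replicate numbers; those used here follow deposit order and only name an array. Brightness limits the U2932 results: 8 arrays were dim.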
